A study of Mus musculus with 26 samples.

Results

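The 10 enzymes described here build chondroitin sulfate, a sulfated sugar chain that is attached to proteoglycan core proteins. They are Csgalnact1, Csgalnact2, Chsy1, Chsy3, Chpf, Chpf2, Chst11, Chst12, Chst15 and Dse. The genes were chosen by name, and each symbol was matched to its Ensembl identifier among the 52636 genes counted in every library. All 10 were found. RNA sequencing of 26 libraries was analysed. Granulocyte-macrophage progenitors (GMPs) and common myeloid progenitors (CMPs) had 4 libraries per genotype, wild-type and Prss57-/-, and bone marrow-derived mast cells (BMMCs, labelled BMMC-P3) had 5 per genotype. Prss57 encodes neutrophil serine protease 4 (NSP4), and the labels call its knockout NSP4 KO.

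Chondroitin sulfate synthesis starts on a serine of the core protein, where a short linkage of sugars is laid down that heparan sulfate and heparin share. The first N-acetylgalactosamine is then added by Csgalnact1 or Csgalnact2, and the chain is extended by Chsy1, Chsy3, Chpf and Chpf2, which act in pairs. Chst11 and Chst12 add sulfate to carbon 4 of N-acetylgalactosamine, Chst15 adds a further sulfate to a residue that already carries one, and Dse turns glucuronic acid into iduronic acid, which makes the chain dermatan sulfate. In mast cells such chains are carried by serglycin, the core protein of the granules, and the doubly sulfated form that Chst15 makes is known from cultured mouse mast cells.

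GMPs and CMPs were sorted from the bone marrow of female mice, as lineage-negative, SCA-1-negative, CD117+ CD34+ cells with high (GMP) or low (CMP) CD16/32. BMMCs came from male mice and were grown from sorted GMPs in medium with IL-3 and stem cell factor. The knockout is a germline deletion of exon 2 of Prss57 made from 1 targeted allele in C57BL/6N embryonic stem cells, so that all cells of the animals carry it, and the controls were wild-type littermates matched for age. No age is tied to these libraries in the labels or the study's methods for them. The progenitor libraries shared a sequencing run and pool, and the BMMC libraries another run and pool. Between BMMCs and GMPs, cell type, sex, culture and run therefore cannot be told apart. Both genotypes of a cell type were in the same run. Each labelled number was taken as a separate sample, and where samples did not come from separate animals or cultures, p-values measure only the spread between samples.

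The libraries held 35501671 to 51497962 reads on genes for GMPs, 32078404 to 53264762 for CMPs and 18627626 to 28647216 for BMMCs. Prss57 had 18064 to 26556 reads in wild-type GMPs and 6 to 25 in Prss57-/- GMPs, 2261 to 3926 in wild-type CMPs and 1 in each Prss57-/- CMP library. The BMMC libraries held 2 to 27 Prss57 reads in wild-type and 0 in Prss57-/-, which allows up to 3 reads a library. The 5 GMP markers (Mpo, Elane, Prtn3, Ctsg and Ms4a3) summed to 30781 to 39673 normalized RPKM in wild-type GMPs and to 3897 to 8331 in wild-type CMPs, and the 7 mast cell markers (Kit, Fcer1a, Ms4a2, Cpa3, Tpsb2, Cma1 and Hdc) to 30833 to 46377 in wild-type BMMCs. The BMMC cultures also held macrophage transcripts, and all 6 macrophage markers (Adgre1, Csf1r, C1qa, C1qb, Mrc1 and Cd14) were above 1 normalized RPKM in every BMMC library, with a sum of 986 to 1257 in wild-type against 48.9 to 68.5 in wild-type GMPs. The 5 dendritic cell markers summed to 126 to 231 in wild-type BMMCs, which H2-Ab1 and Itgax, also expressed by macrophages, carried at 94.9 to 180 and 26.4 to 46.0. Of the others, Ccr7 was at 4.22 to 16.0, and Flt3 and Cd209a were near 0 in these BMMCs, at 0.0985 to 0.182 and 0.0340 to 0.143. Prss57-/- BMMC library 3 stood apart. Its macrophage sum was 107, against 1287 to 1504 in the other Prss57-/- BMMC libraries, and its mast cell sum was 74640, against 24887 to 40236. Prss57-/- CMP library 2 also stood apart, with normalized RPKM that summed to 785333 over all genes, against 336085 to 494881 in the other 25 libraries.

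In wild-type cells, 8 members were higher in BMMCs than in GMPs and 2, Chst12 and Csgalnact2, were lower, as described below. Chsy1 and Chst11 are 2 of the 8 and do not stand for all of them. The bases before the starts of these 4 genes are shown. They were taken from RefSeq (GRCm38.p6), which gave windows for 8 of the 10 members in 11 entries. Csgalnact1 and Chsy3 had no entry, and the windows of Dse and Chst15 lay wholly in annotated exons. Those of Chpf and Chpf2, which were also higher in BMMCs, are not shown. The windows reach 250 bases upstream of the start and are printed 5′ to 3′ on the strand of the gene, without bases that the GENCODE M21 annotation puts in an exon. For Csgalnact2, which had 2 entries, the window beside the annotated gene start is shown. Capitals mark matches to a motif on either strand.
Chsy1 (chr7:66109242-66109491, forward strand): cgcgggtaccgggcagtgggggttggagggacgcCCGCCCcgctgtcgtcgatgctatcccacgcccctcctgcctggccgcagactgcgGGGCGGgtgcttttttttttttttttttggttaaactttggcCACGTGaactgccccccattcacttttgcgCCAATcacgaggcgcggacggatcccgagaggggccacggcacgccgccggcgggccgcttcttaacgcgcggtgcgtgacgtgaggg
Chst11 (chr10:82985247-82985496, forward strand): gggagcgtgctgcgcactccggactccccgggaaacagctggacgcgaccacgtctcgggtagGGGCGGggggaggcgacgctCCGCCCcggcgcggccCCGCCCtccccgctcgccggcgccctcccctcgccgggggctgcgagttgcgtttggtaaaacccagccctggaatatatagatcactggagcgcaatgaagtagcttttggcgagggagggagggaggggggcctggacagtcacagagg
Chst12 (chr5:140505359-140505549, forward strand): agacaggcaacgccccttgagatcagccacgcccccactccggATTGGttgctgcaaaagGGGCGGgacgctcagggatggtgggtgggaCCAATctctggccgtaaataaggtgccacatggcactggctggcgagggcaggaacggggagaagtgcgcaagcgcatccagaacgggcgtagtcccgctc
Csgalnact2 (chr6:118139141-118139390, reverse strand): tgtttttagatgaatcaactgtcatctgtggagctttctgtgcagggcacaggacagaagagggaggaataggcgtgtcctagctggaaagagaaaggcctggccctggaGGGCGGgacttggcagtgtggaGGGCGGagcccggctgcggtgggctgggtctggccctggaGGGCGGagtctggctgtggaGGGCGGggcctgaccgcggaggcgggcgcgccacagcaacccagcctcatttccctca

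The GC box GGGCGG was found in all 4 windows, in those of the genes that rose and of the genes that fell, and 32.7% of the 32851 promoter windows of the same length hold it. It occurred 4 times before Csgalnact2 and 3 times before Chst11. The letters CCAAT lay before Chsy1 and Chst12 and are held by 33.8% of all windows. The E-box CACGTG lay before Chsy1 only among these 4 genes, and 6.02% of all windows hold it. No match was found in the 4 windows for the GATA letters AGATAA (in 9.99% of all windows) or TGATAA (7.94%). None was found for the RUNX letters TGTGGT, which 14.0% of all windows hold. The letters of PU.1 (GAGGAAGT, in 2.44% of all windows) and of the TATA box (TATAAA, 12.4%) were not found either. The same held for the CRE (TGACGTCA, 1.55%). Motifs were searched over the whole windows, bases in exons included. Among the windows not printed, TGACGTCA occurred 2 times in that of Chpf and TGTGGT once in that of Dse. The GC box also lay in the windows of Chpf, Dse and Chst15, and CCAAT in those of Chpf2 and Dse. Neither the windows of Chpf2 nor the other window of Csgalnact2 held the GC box. All 250 bases of the Dse window lay in annotated exons. In the Chpf window only the last 60 bases lay outside exons. The TGACGTCA match at -86 to -79 was thus in an exon, and that at -41 to -34 was not. The GC content was 70.0% for Chst11, 65.6% for Chsy1 and Chst12 and 64.0% for Csgalnact2, with a median of 52.4% over all windows.

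Levels of the enzymes are given as normalized RPKM, which is scaled by gene length and by a size factor for each library, and means are given with their SD over libraries. In wild-type GMPs, Chst12 and Csgalnact2 were the leading members, at 88.5 ± 2.69 and 76.4 ± 13.9 normalized RPKM (n = 4), and their ranges over libraries overlapped. Chsy1 was next at 24.5 ± 3.23, followed by Chpf2 at 12.9 ± 1.39 and Chst11 at 10.2 ± 1.92, whose ranges overlapped. Chst15 was at 5.55 ± 0.724 and Chpf at 2.33 ± 0.847, and Csgalnact1, Dse and Chsy3 were below 1 in every GMP library. In wild-type CMPs, Csgalnact2 and Chst12 again led, at 46.1 ± 5.32 and 38.6 ± 2.97, with ranges that overlapped. In BMMCs the order was flatter. Csgalnact2, Chsy1, Chst15, Chst11, Chpf2 and Chst12 lay between 25.0 and 45.2 normalized RPKM in wild-type, and each overlapped with its neighbour in the order. Dse followed at 12.1 ± 1.61 (n = 5), below the range of Chst12 and above that of Chpf.

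**Figure D1:**
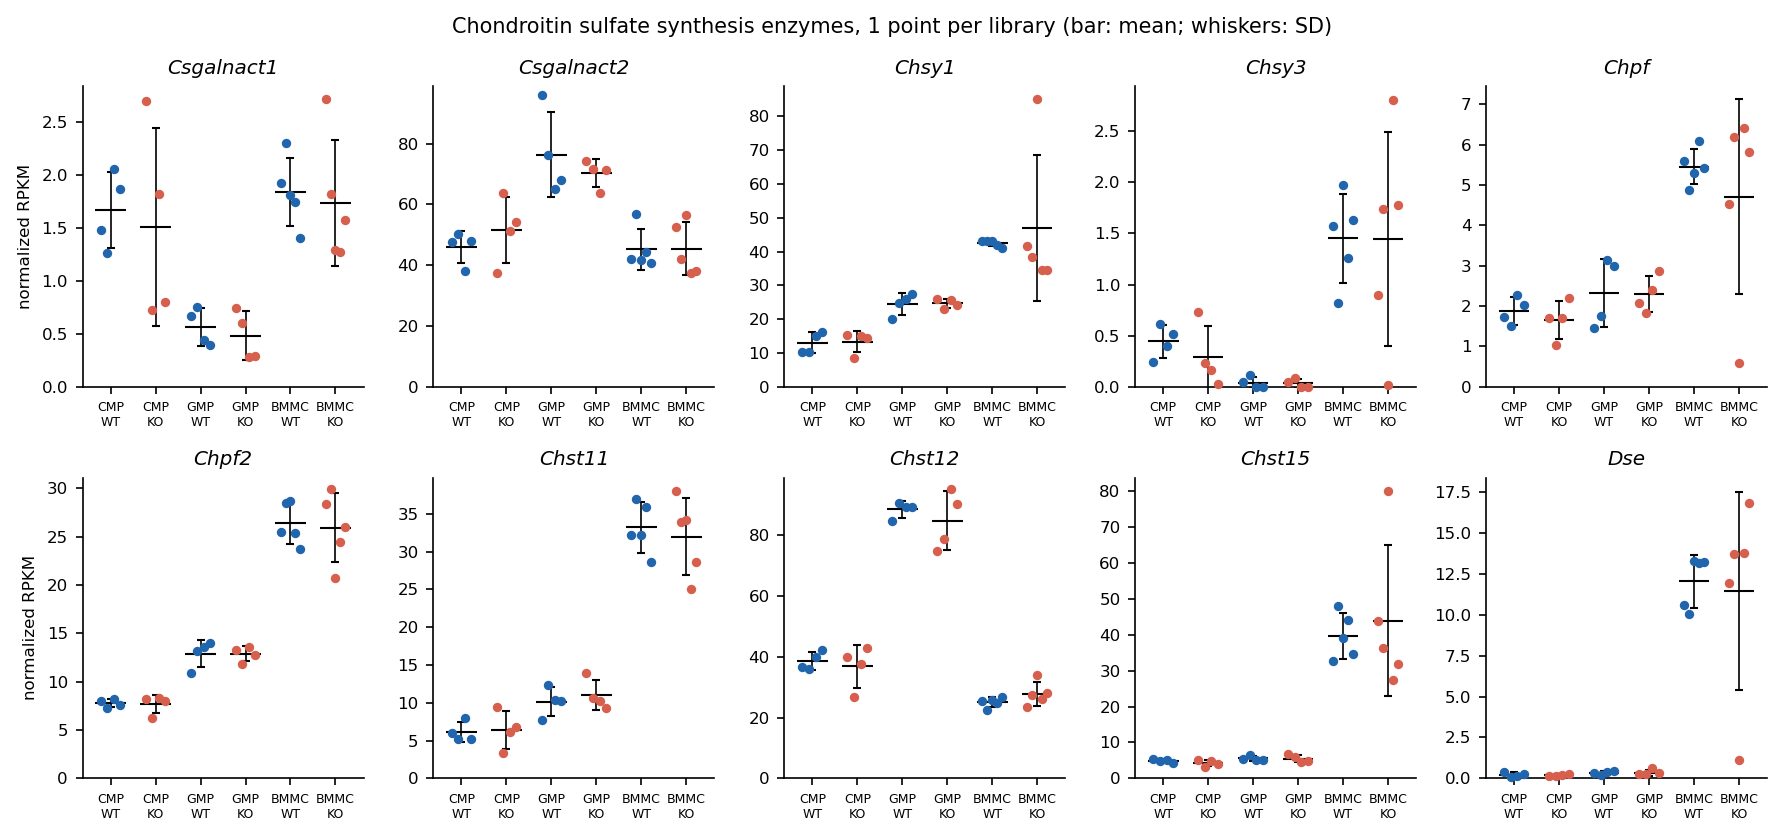
Normalized RPKM of the 10 enzymes (y axis, linear, a scale for each gene) in the 26 libraries, by cell type and genotype (WT, wild-type; KO, Prss57-/-). Points are libraries, bars means and whiskers SD; Chst12 is highest in GMPs at 74.8 to 95.3, and Dse and Chst15 are highest in BMMCs.

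The summed level of the 10 enzymes was 221 ± 6.81 normalized RPKM in wild-type GMPs, 121 ± 5.13 in CMPs (n = 4 each) and 233 ± 14.8 in BMMCs (n = 5). The sums of GMPs, at 213 to 227, lay above those of CMPs, at 117 to 128, and overlapped with those of BMMCs, at 217 to 254. The make-up of the sum differed more than its size between GMPs and BMMCs. Chst12 held 40.0 ± 2.00% of it in wild-type GMPs, 32.0 ± 1.37% in CMPs and 10.8 ± 1.29% in BMMCs. Chst15 held 2.51 ± 0.277% in GMPs and 17.0 ± 1.70% in BMMCs, and Dse 0.158 ± 0.0490% and 5.21 ± 0.845%. Among the enzymes that sulfate carbon 4, the level of Chst11 was 0.114 ± 0.0186 times that of Chst12 in wild-type GMPs (n = 4) and 1.34 ± 0.215 times in BMMCs (n = 5), a ratio within each library that the scaling between libraries does not touch. In Prss57-/- cells the same ratio was 0.133 ± 0.0380 in GMPs and 1.17 ± 0.272 in BMMCs. The values of all GMP libraries, at 0.0913 to 0.186, were below those of all BMMC libraries, at 0.966 to 1.63.

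**Figure D2:**
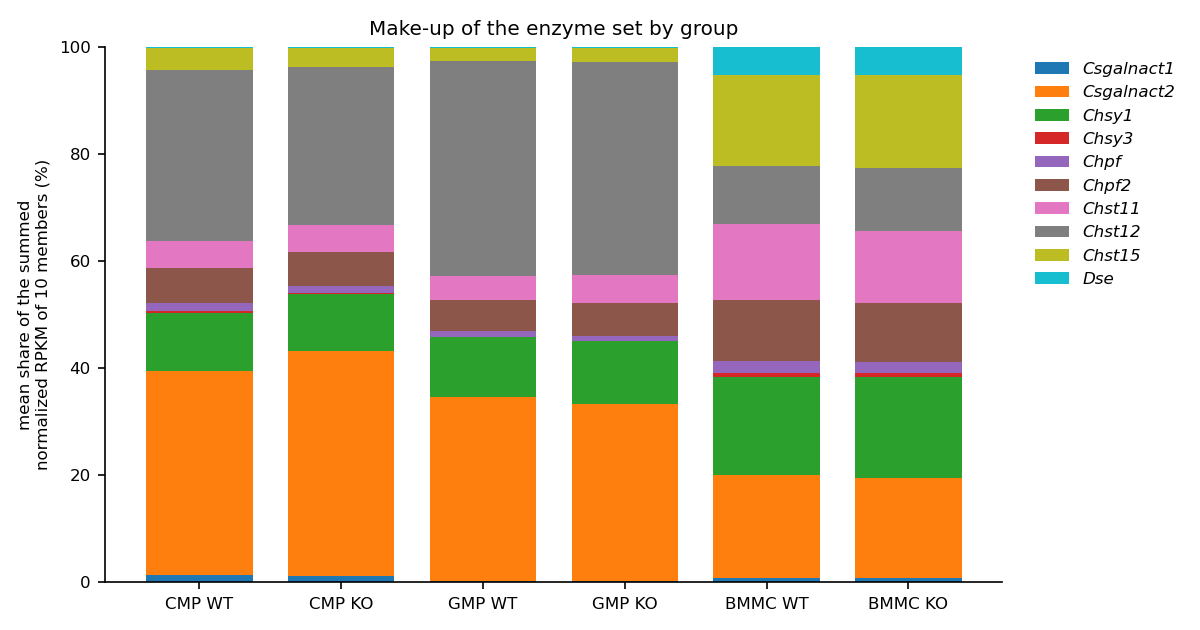
Mean share of each enzyme in the summed normalized RPKM of the 10 enzymes (y axis, percent) in the 6 groups (x axis; WT, wild-type; KO, Prss57-/-). Chst12 holds 40.0% in wild-type GMPs and 10.8% in wild-type BMMCs, and Chst15 2.51% and 17.0%.

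The comparison of GMPs with CMPs asked how the enzymes differed between the kind of progenitor from which mast cells were cultured and the stage before it. In wild-type cells, 5 of the 10 enzymes were higher in GMPs and 2 were lower, at an adjusted p under 0.05. Here and below, p-values come from the quasi-likelihood test of edgeR and are adjusted by the Benjamini-Hochberg method for all genes in the fit. Of all 14967 genes tested, 19.0% were higher and 18.8% lower by the same rule. With library size as the only scaling, 32.6% of the calls over all genes were higher, against 50.2% with the scaling used here, while the 7 members called were also called under it. Under a stricter rule, at least 2-fold with an adjusted p below 0.01, which 12.8% of all genes passed, Chst12 and Csgalnact1 remained. The median log2 fold change of the 10 enzymes was 0.72, beside -0.02 over all genes.

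Among the enzymes that start the chain, Csgalnact1 and Csgalnact2 moved in opposite directions. Csgalnact1 (chromosome 8, 68356781 to 68735146, reverse strand) was at 1.48, 1.26, 2.06 and 1.87 normalized RPKM in the 4 wild-type CMP libraries and at 0.665, 0.758, 0.446 and 0.391 in the 4 GMP libraries. The groups did not overlap, and Csgalnact1 fell by 1.55 on the log2 scale (standard error 0.26, adjusted p = 0.00117). Csgalnact2 (chromosome 6, 118107452 to 118139140, reverse strand) was at 47.8, 50.3, 38.3 and 47.9 in CMPs and at 96.0, 76.3, 65.0 and 68.1 in GMPs. All 4 GMP libraries lay above all CMP libraries, and the rise was 0.75 on the log2 scale (standard error 0.14, adjusted p = 0.00220). The lower of the pair in level thus fell and the higher rose.

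Among the enzymes that extend the chain, Chsy1 (chromosome 7, 66109515 to 66173798, forward strand) rose by 0.93 on the log2 scale from CMPs to GMPs (standard error 0.18, adjusted p = 0.00290). It was at 10.4, 10.4, 15.1 and 16.3 normalized RPKM in wild-type CMPs and at 20.0, 24.8, 25.9 and 27.4 in GMPs, with no overlap. Chpf2 (chromosome 5, 24586741 to 24594556, forward strand) rose by 0.74 (standard error 0.12, adjusted p = 0.000691), from 7.24 to 8.25 in CMPs to 10.8 to 14.0 in GMPs. Chpf, its relative on chromosome 1 (75474569 to 75479307, reverse strand), did not pass the test and had overlapping values, at a log2 difference of 0.33 (standard error 0.27, adjusted p = 0.351). The exons of Chpf2 share 44.1% of their bases with Smarcd3 on the opposite strand, and whether the counting used strand is not stated. Smarcd3 itself had at most 10 reads in any progenitor library and at most 21 in any BMMC library, against 942 to 4312 and 1909 to 3838 reads of Chpf2.

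Chsy3, the less abundant relative of Chsy1, lies on chromosome 18 (59175401 to 59535999, forward strand) and fell from CMPs to GMPs. It had 33, 93, 75 and 62 reads in the wild-type CMP libraries and 7, 20, 0 and 0 in the GMP libraries, where a count of 0 allows up to 3 reads. The groups did not overlap, and it fell by 3.37 on the log2 scale (standard error 0.89, adjusted p = 0.0142). Its level stayed below 1 normalized RPKM in every progenitor library. Chsy1 and Chsy3 thus differed in the direction of their change between the progenitors.

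Of the enzymes that modify the chain, Chst12 (chromosome 5, 140505550 to 140525724, forward strand) differed most firmly between the progenitors. It was at 36.6, 35.9, 39.8 and 42.3 normalized RPKM in wild-type CMPs and at 84.6, 90.7, 89.3 and 89.2 in GMPs. The groups were far apart relative to their spread, and the rise was 1.21 on the log2 scale (standard error 0.10, adjusted p = 8.79e-06). Chst11 (chromosome 10, 82985498 to 83195900, forward strand) was also higher in GMPs, by 0.75 on the log2 scale (standard error 0.19, adjusted p = 0.0109). Its values, at 5.21 to 8.05 in CMPs and 7.72 to 12.4 in GMPs, overlapped in 1 library of each. Chst15 and Dse did not pass the test, with log2 fold changes of 0.19 (standard error 0.13, adjusted p = 0.262) and 0.69 (standard error 0.46, adjusted p = 0.252).

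In Prss57-/- cells, 3 enzymes were higher in GMPs than in CMPs (Chst12, Chsy1 and Chpf2) and 1 was lower (Csgalnact1), where 10.6% and 10.9% of the 14959 genes tested were higher and lower. Only Chst12 passed the stricter rule, which 8.42% of all genes passed. The log2 differences were 1.25 for Chst12 (standard error 0.19, adjusted p = 0.00196), 0.93 for Chsy1 (standard error 0.21, adjusted p = 0.0122), 0.78 for Chpf2 (standard error 0.15, adjusted p = 0.00647) and -1.62 for Csgalnact1 (standard error 0.50, adjusted p = 0.0481). The values of Csgalnact1 overlapped, at 2.70, 0.729, 1.82 and 0.799 normalized RPKM in CMPs and 0.745, 0.606, 0.285 and 0.287 in GMPs. Csgalnact2, Chst11 and Chsy3, which passed in wild-type cells, had log2 fold changes of 0.49, 0.81 and -2.91 (adjusted p = 0.0712, 0.0765 and 0.0995). An interaction term, fitted over the 16 progenitor libraries, asked whether the step from CMP to GMP depended on genotype, and no member and 0% of 15900 genes passed, with 169 genes at an unadjusted p under 0.05, or 475 without Prss57-/- CMP library 1. Of the 10 members, 0 had an unadjusted p under 0.05 in this test by edgeR, limma voom or DESeq2.

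Without Prss57-/- CMP library 2, whose sum stood apart, 5 members passed in Prss57-/- cells, with Csgalnact2 added (log2 fold change 0.59, adjusted p = 0.0209). Csgalnact1 kept its direction when each library was left out in turn, at log2 fold changes between -1.90 and -1.18, but its adjusted p ranged from 0.0189 to 0.134. Leaving out Prss57-/- CMP library 1 called Chst11 (log2 fold change 1.06, adjusted p = 0.0135). With library size as the only scaling, Chst12 and Chpf2 alone were called, both higher, and 31.9% of all calls were higher, against 49.3% with the scaling used here.

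Summed markers of other lineages also differed between GMPs and CMPs, though not every marker went with its sum. In wild-type cells, the mast cell sum was 512 to 641 normalized RPKM in GMPs and 160 to 174 in CMPs. The macrophage sum was 48.9 to 68.5 and 24.1 to 33.6. Its markers C1qa and C1qb were lower in GMPs, at 0.108 to 0.667 against 1.32 to 3.27 and 0.109 to 0.622 against 1.00 to 2.29. The dendritic cell sum was also lower in GMPs, at 28.2 to 44.1 against 80.2 to 88.0. The basophil markers Mcpt8, Prss34 and Cd200r3 summed to 1756 to 2158 normalized RPKM in wild-type GMPs and 27.8 to 58.9 in CMPs, the eosinophil markers Epx, Prg2 and Prg3 to 1478 to 2411 and 0.553 to 31.1, and the neutrophil markers Ltf, Camp, Ngp, Mmp9 and Retnlg to 332 to 600 and 0.889 to 3.19. The 6 markers of CMPs with erythroid and megakaryocyte potential (Gata1, Gata2, Pf4, Itga2b, Car1 and Klf1) summed to 1607 to 2541 in CMPs and 108 to 168 in GMPs. In bulk samples, fewer cells of a type and less RNA per cell cannot be told apart, and the part of these lineages in the enzyme levels was not tested.

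**Figure D3:**
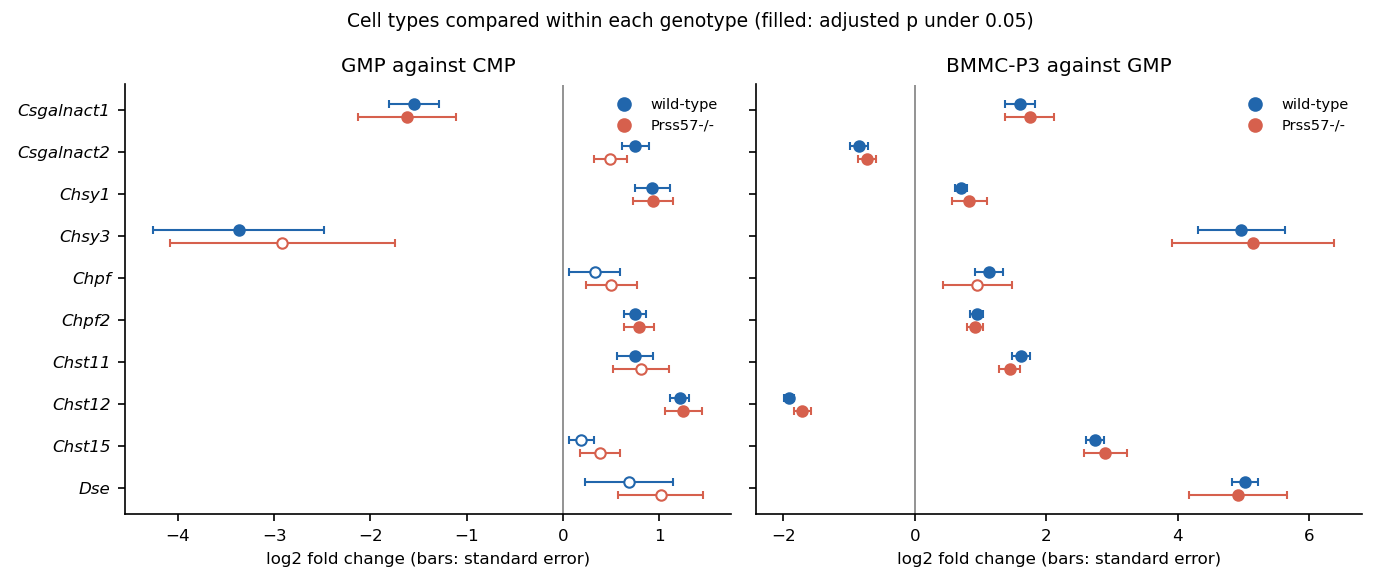
Log2 fold changes of the 10 enzymes (x axis, with standard errors) for GMPs against CMPs (left) and BMMC-P3 against GMPs (right), in wild-type (blue) and Prss57-/- (red) cells; filled points have an adjusted p under 0.05. Csgalnact1 and Chsy3 lie below 0 on the left and above it on the right, and Chst12 and Csgalnact2 lie above 0 on the left and below it on the right.

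Between BMMCs and GMPs, which came from different animals, all 10 enzymes passed the test in wild-type cells, with 8 higher and 2 lower in BMMCs. Over all genes, 40.8% of the 14754 genes tested were higher and 40.8% lower. By the stricter rule, which 51.7% of genes passed, 7 members remained: Dse, Chsy3, Chst15, Chst11, Csgalnact1 and Chpf as higher and Chst12 as lower. The median log2 fold change of the enzymes was 1.37, beside 0.00 over all genes. These GMP libraries were also those compared with CMPs, so the values of the pair of comparisons are not independent.

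Dse (chromosome 10, 34151393 to 34207715, reverse strand) and Chsy3 had the largest differences from GMPs, and their order depended on the processing, at log2 differences of 4.83 to 5.17 for Dse and 4.56 to 6.33 for Chsy3 over the alternatives in wild-type cells. Dse was at 0.300, 0.233, 0.414 and 0.446 normalized RPKM in wild-type GMPs, with 62 to 105 reads, and at 10.6, 10.0, 13.3, 13.2 and 13.2 in BMMCs, with 875 to 1456 reads. No values overlapped, and the rise was 5.02 on the log2 scale (standard error 0.20, adjusted p = 5.89e-10). Chst15 (chromosome 7, 132235780 to 132317228, reverse strand) rose from 5.35, 6.63, 5.11 and 5.13 to 32.7, 48.0, 39.1, 44.0 and 34.8, a rise of 2.74 on the log2 scale (standard error 0.14, adjusted p = 3.76e-09). Chst11 rose from 7.72 to 12.4 in GMPs to 28.6 to 36.9 in BMMCs, a log2 fold change of 1.61 (standard error 0.13, adjusted p = 2.43e-07). The sulfotransferase Chst12 went the other way, from 84.6 to 90.7 in GMPs to 25.4, 22.6, 25.7, 24.8 and 26.8 in BMMCs, and fell by 1.91 on the log2 scale (standard error 0.08, adjusted p = 6.09e-10). An antisense gene, Gm10584, shares 17.9% of the exon bases of Chst15 and had at most 75 reads in any library, where Chst15 had 478 or more.

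The initiating and polymerizing enzymes differed by less, except for Chsy3. Chsy3 had 97, 48, 144, 82 and 113 reads in wild-type BMMCs, at 0.824 to 1.97 normalized RPKM, and rose by 4.97 on the log2 scale (standard error 0.66, adjusted p = 1.97e-05). Csgalnact1 rose from 0.391 to 0.758 in GMPs to 1.41 to 2.30 in BMMCs (log2 fold change 1.60, standard error 0.23, adjusted p = 3.06e-05). Both were lower in GMPs than in CMPs and higher in BMMCs than in GMPs. Csgalnact2, the member that held the largest share in CMPs, was at 42.0, 56.9, 41.8, 44.3 and 40.8 in BMMCs and fell by 0.85 on the log2 scale (standard error 0.14, adjusted p = 9.80e-05). Chpf, Chpf2 and Chsy1 rose by 1.13, 0.94 and 0.70 on the log2 scale (standard errors 0.21, 0.10 and 0.10, adjusted p = 0.000332, 1.97e-06 and 2.21e-05), with no overlap of their values.

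In Prss57-/- cells, 7 members were higher in BMMCs than in GMPs and 2 lower, where 37.7% of 14929 genes were higher and 36.2% lower. With 47.9% of all genes passing the stricter rule, 6 members remained. The log2 fold changes were 4.92 for Dse (standard error 0.75, adjusted p = 0.000214), 2.89 for Chst15 (standard error 0.33, adjusted p = 3.21e-05), 1.44 for Chst11 (standard error 0.16, adjusted p = 2.40e-05) and -1.71 for Chst12 (standard error 0.13, adjusted p = 1.68e-06). Csgalnact2 fell by 0.73 on the log2 scale (standard error 0.14, adjusted p = 0.00104). Chsy1 was higher by 0.83 (standard error 0.27, adjusted p = 0.0182), by 0.50 without library 3 (adjusted p = 0.000352) and by 0.61 with library size as the only scaling, where the call was lost (adjusted p = 0.0564). Chpf did not pass, at a log2 difference of 0.95 (standard error 0.53, adjusted p = 0.128). The wild-type and Prss57-/- comparisons share no library, and the difference between them was not tested.

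The call of Chpf turned on Prss57-/- BMMC library 3 in the fit of these groups alone, while it also passed with that library when all 26 libraries were in 1 fit (log2 difference 0.96, adjusted p = 0.0284). Without the library, Chpf had a log2 fold change of 1.24 over GMPs (adjusted p = 3.93e-05) and all 10 members were called. Chpf was at 4.53, 6.19, 6.42 and 5.83 normalized RPKM in the other Prss57-/- BMMC libraries and at 0.590 in library 3. Dse was at 12.0, 13.7, 13.8 and 16.8 in the others and at 1.11 in library 3, with 83 reads. Chsy3 had 55, 108, 230 and 125 reads in the others and 1 read in library 3. These 3 enzymes were thus low in the 1 library where the macrophage sum was low. The dendritic cell and basophil sums were low there too, at 23.0 against 126 to 257 and at 339 against 457 to 835 in the other BMMC libraries. Of the basophil markers, Cd200r3 was instead higher, at 231 against 145 to 186 in the other Prss57-/- BMMC libraries. Chsy1 and Chst15 were high in the same library, at 85.1 against 34.6 to 41.7 and at 80.0 against 27.3 to 43.8. Chst12 was also above the others, at 33.9 against 23.5 to 28.0, and Chpf2 below them, at 20.8 against 24.5 to 29.9. Chst11 was not set apart, at 34.2 against 25.1 to 38.1. Serglycin, the core protein, was at 2951 in library 3 and at 864 to 988 in the other Prss57-/- BMMC libraries.

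In library 3, each of the 6 macrophage markers was lower than in all other BMMC libraries, for example C1qa at 17.4 against 149 to 319 and Csf1r at 12.3 against 106 to 176. Of the 7 mast cell markers, 5 were above all other BMMC libraries there. Cpa3 was at 29822 against 10304 to 16854, Cma1 at 14490 against 1565 to 3836, Fcer1a at 6786 against 2189 to 3668, Kit at 1002 against 277 to 734 and Ms4a2 at 631 against 246 to 397. Tpsb2 lay within the range of the others, at 21821, and Hdc was lower, at 88.6 against 125 to 175. Dse in library 3 was still above all GMP libraries, whose highest value was 0.621, and Chst15 was above all GMP libraries in every BMMC library. The part of macrophage, dendritic cell, basophil and mast cell transcripts in levels of Dse, Chpf, Chsy3, Chsy1, Chst15, Chst12 and Chpf2 was not tested.

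**Figure D4:**
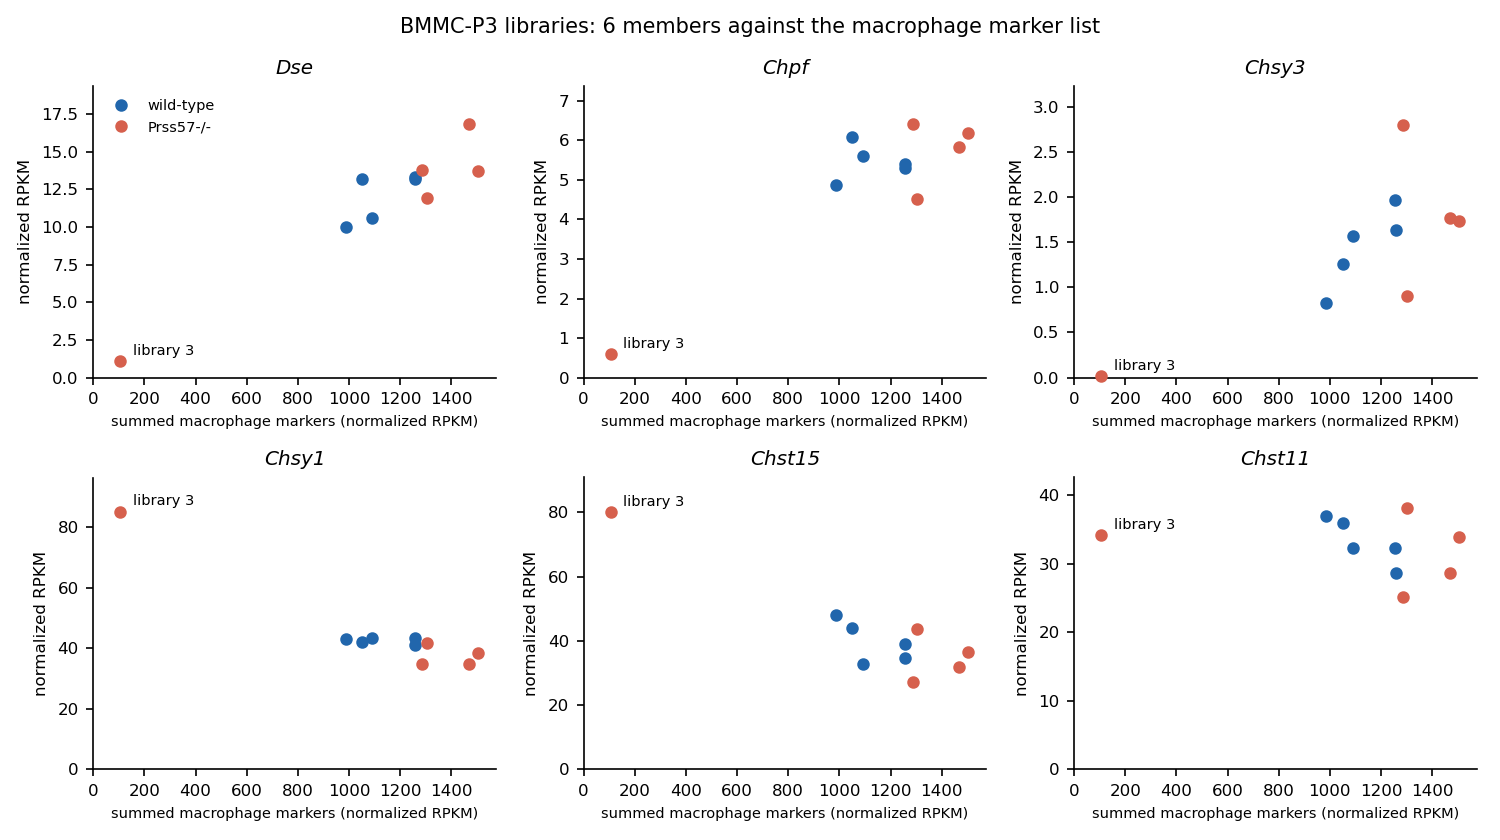
Normalized RPKM of 6 enzymes (y axis) in the 10 BMMC-P3 libraries against the summed normalized RPKM of 6 macrophage markers (x axis), wild-type in blue and Prss57-/- in red. Library 3 of Prss57-/- lies at a marker sum of 107, with Dse, Chpf and Chsy3 at their lowest (1.11, 0.590 and 0.0199) and Chsy1 and Chst15 at their highest (85.1 and 80.0).

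The comparison of genotypes asked whether loss of NSP4 altered the expression of these enzymes. No member passed the test between Prss57-/- and wild-type in GMPs, CMPs or BMMCs. In GMPs, 9 members were tested and 2 of 14689 genes (0.0136%) passed; in CMPs, 10 members were tested and 1 of 14916 genes (0.00670%) passed; in BMMCs, 10 members were tested and 0% of 13938 genes passed, with 332 genes at an unadjusted p under 0.05. That last count was 1031 without Prss57-/- BMMC library 3 and 624 without library 4, and 195, 222 and 198 without wild-type BMMC libraries 1, 2 and 5. By edgeR, limma voom and DESeq2 alike, 0 members passed and 0 had an unadjusted p under 0.05 in each of the cell types.

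The intervals of these differences were narrow in GMPs for the enzymes with many reads. In GMPs, the Prss57-/- level of Chst12 was 0.96 times that of wild-type (95% interval 0.806 to 1.14), that of Chsy1 1.01 times (0.834 to 1.22) and that of Csgalnact2 0.921 times (0.742 to 1.14). Chst15, Chst11 and Chpf2 in GMPs had intervals of 0.776 to 1.27, 0.824 to 1.42 and 0.836 to 1.20. A change of 2-fold lay outside all of these. For the scarce enzymes it did not always, since Csgalnact1 had an interval of 0.466 to 1.57 in GMPs and of 0.442 to 1.86 in CMPs. In CMPs, the interval was 0.701 to 1.26 for Chst12 and 0.671 to 1.52 for Chsy1. It was 0.622 to 1.74 for Chst11 and 0.182 to 2.33 for Chsy3.

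Chsy3 was too scarce to be fitted between the genotypes in GMPs. It had 9, 14, 0 and 0 reads in the Prss57-/- libraries and 7, 20, 0 and 0 in the wild-type libraries, or 0.122 ± 0.151 and 0.138 ± 0.184 CPM, reads scaled to a common library size (SD, n = 4 each). An exact two-sided permutation test gave p = 1, and the smallest p that 4 libraries against 4 allow is 0.0286.

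In BMMCs, the Prss57-/- level was 0.98 times the wild-type level for Chpf2 (95% interval 0.835 to 1.15), 0.96 times for Chst11 (0.796 to 1.16) and 1.1 times for Chst12 (0.945 to 1.29). The intervals were wide for Dse, Chpf and Chsy3, which were low in library 3, at 0.425 to 2.12, 0.416 to 1.79 and 0.336 to 2.97. For Chsy1 and Chst15, which were high in library 3, they were 0.751 to 1.61 and 0.715 to 1.7. Without library 3, the log2 fold change of Chsy1 turned from 0.14 to -0.19 (unadjusted p = 0.0117, adjusted p = 0.595), that of Chst15 from 0.14 to -0.19 (adjusted p = 0.812) and that of Dse from -0.08 to 0.22 (adjusted p = 0.746). The 4 other Prss57-/- libraries held Chsy1 at 34.6 to 41.7 and the wild-type libraries at 41.0 to 43.2, so that 1 of the 4 overlapped with wild-type. None of these passed the test.

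**Figure D5:**
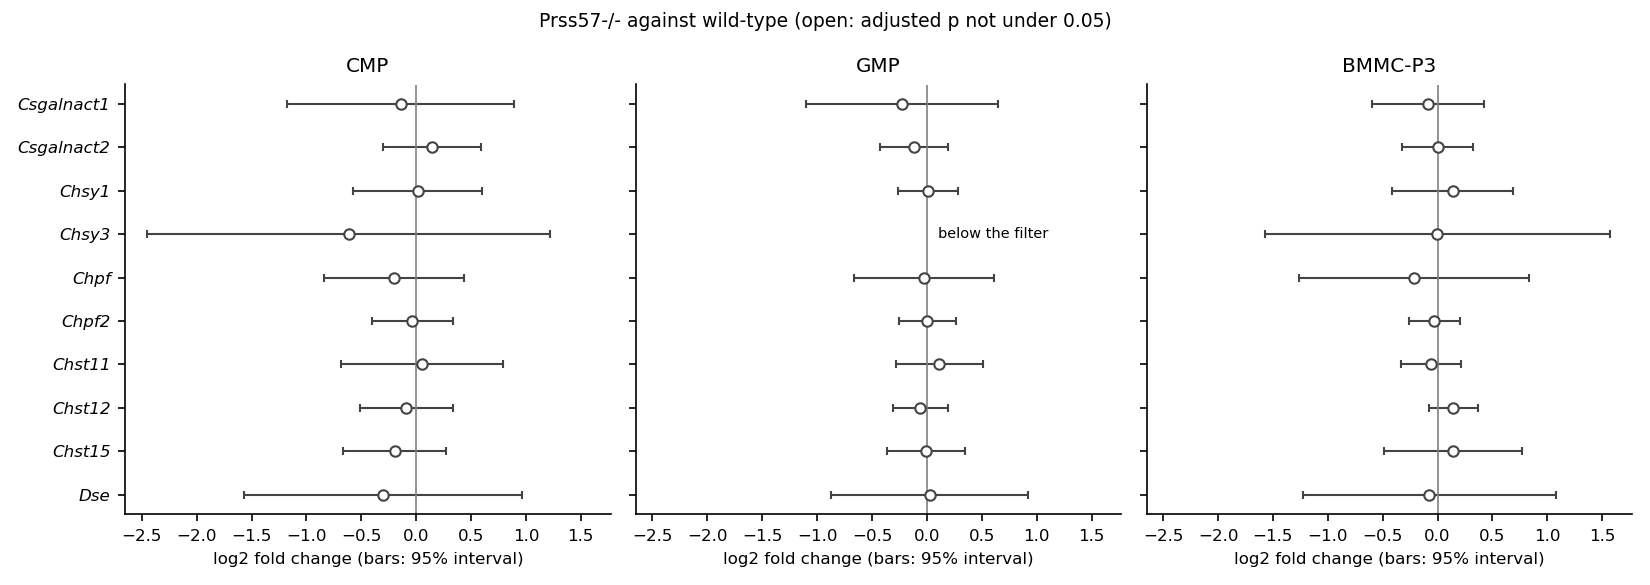
Log2 fold changes of Prss57-/- against wild-type (x axis, with 95% intervals) for the enzymes in CMPs, GMPs and BMMC-P3; all points are open, since no adjusted p is under 0.05. Chsy3 was below the count filter in GMPs, and its intervals in CMPs and BMMCs are the widest of the 10 enzymes.

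Of 53 other genes of the pathway, in 5 lists, 40 were tested between GMPs and CMPs in wild-type cells, and 14 were higher in GMPs and 2 lower, where 19.0% of all genes were higher and 18.8% lower. Of the 7 linkage enzymes, 4 were higher and 0 lower, led by Pxylp1, a phosphatase that acts on the linkage xylose, at 44.5 ± 1.51 normalized RPKM in GMPs and 9.86 ± 0.789 in CMPs (log2 fold change 2.19, standard error 0.10, adjusted p = 5.13e-07). Xylt1, which starts the linkage, had a log2 fold change of 1.41 (standard error 0.28, adjusted p = 0.00297). Of 6 other chondroitin and dermatan sulfate enzymes, 4 were tested and 2 were higher. Chst13, a further sulfotransferase for carbon 4, was at 30.3 to 38.6 in wild-type GMPs and 0.649 to 2.55 in CMPs (log2 fold change 4.58, standard error 0.36, adjusted p = 7.94e-06). Chst14, which sulfates dermatan, had a log2 fold change of 0.62 (standard error 0.15, adjusted p = 0.00774).

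Chst12 and Chst13 were thus both high in GMPs, and both were lower in BMMCs. Chst13 was at 0.305 to 1.39 in wild-type BMMCs, a log2 fold change of -5.69 against GMPs (standard error 0.27, adjusted p = 2.41e-09), and Pxylp1 was at 0.367 to 0.548, a log2 fold change of -6.73 (standard error 0.13, adjusted p = 1.03e-11). The other 4 genes tested of the chondroitin and dermatan list were higher in BMMCs, where 40.8% of all genes were higher and 40.8% lower. Chst7, which sulfates carbon 6, had a log2 fold change of 3.34 (standard error 0.41, adjusted p = 9.77e-06), at 17 to 40 reads in wild-type BMMCs and 2 to 10 in GMPs. Ust, which sulfates the uronic acid, had a log2 fold change of 2.46 (standard error 0.37, adjusted p = 5.59e-05). That of Dsel, a relative of Dse, was 1.24 (standard error 0.16, adjusted p = 1.22e-05). In Prss57-/- BMMC library 3, Chst7 was at 0.0265 normalized RPKM and Ust at 0.0553. The other Prss57-/- BMMC libraries held them at 0.414 to 0.943 and 0.671 to 1.11. In library 3, Dsel was at 1.41 against 1.21 to 1.37, and Chst14 at 11.3 against 11.8 to 13.0.

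The sulfate and sugar donor genes supply both kinds of chain. Of the 10, 5 were higher and 0 lower in wild-type GMPs than in CMPs, where 19.0% of all genes were higher and 18.8% lower. In wild-type BMMCs against GMPs, 5 were higher and 4 lower, where 40.8% of all genes were higher and 40.8% lower. Papss2, which makes the sulfate donor, was at 1.56 to 4.00 normalized RPKM in wild-type CMPs, 17.7 to 29.7 in GMPs and 73.7 to 98.0 in BMMCs, with log2 fold changes of 3.37 (standard error 0.30, adjusted p = 1.97e-05) and 1.62 (standard error 0.15, adjusted p = 9.88e-07) for the successive steps. Slc35d1, a transporter of nucleotide sugars, also rose at both steps, by 0.85 and 2.41. Slc35b2, which carries the sulfate donor into the Golgi, fell by 2.09 from GMPs to BMMCs on the log2 scale (adjusted p = 5.65e-08).

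Heparan sulfate and heparin enzymes compete for the same linkage. Of the 18, 12 were tested between wild-type GMPs and CMPs, and Ndst1 alone was higher (log2 fold change 0.96, standard error 0.21, adjusted p = 0.00518). No gene of the list was lower, where 19.0% of all genes were higher and 18.8% lower. Between BMMCs and GMPs, 14 were tested, and 10 were higher and 2 lower, against 40.8% of all genes in each direction. Hs6st2, which sulfates carbon 6 of glucosamine, was at 74.3 to 106 normalized RPKM in wild-type BMMCs and 0.0501 to 0.105 in GMPs (log2 fold change 10.15, standard error 0.22, adjusted p = 1.52e-11). Ndst3 had 230 to 371 reads in BMMCs and 0 in every wild-type GMP library, which makes it at least 200.4-fold higher against a floor of 3 reads per library. Extl1 and Hs3st1 had log2 fold changes of 8.39 and 5.34 (adjusted p = 4.09e-10 and 7.00e-10). In Prss57-/- BMMC library 3, Extl1 was at 2.82, against 8.81 to 14.6 in the other Prss57-/- BMMC libraries. Hs3st1 was higher there, at 116 against 22.6 to 25.3, and so were Hs6st2 and Ndst3. The median log2 fold change of the 14 was 1.62, beside 1.37 for the chondroitin sulfate members.

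Among 12 core proteins, serglycin (Srgn) was at 987 ± 274 normalized RPKM in wild-type GMPs, 542 ± 80.4 in CMPs (n = 4 each) and 1139 ± 99.1 in BMMCs (n = 5). It was higher in GMPs than in CMPs (log2 fold change 0.88, standard error 0.18, adjusted p = 0.00425) and did not differ by the test between BMMCs and GMPs (0.11, standard error 0.16, adjusted p = 0.526). Of the 8 core proteins tested between BMMCs and GMPs in wild-type cells, 6 were higher and 1 lower, and 40.8% of all genes were called in each direction. Versican (Vcan) and syndecan-4 (Sdc4) had log2 fold changes of 9.79 and 8.37 (adjusted p = 2.29e-10 and 3.56e-08). Cd74, which is also a gene of antigen-presenting cells, was at 589 to 1059 in wild-type BMMCs and at 40.4 in Prss57-/- BMMC library 3. In that library, syndecan-1 (Sdc1) was at 1.63, against 12.5 to 28.0 in the other BMMC libraries.

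In Prss57-/- cells, Chst13 had log2 fold changes of 3.84 for GMPs over CMPs (standard error 0.39, adjusted p = 0.000259) and -5.70 for BMMCs over GMPs (standard error 0.27, adjusted p = 1.37e-07), Pxylp1 of 2.05 and -6.87 (adjusted p = 0.000123 and 1.45e-06) and Papss2 of 3.19 and 1.86 (adjusted p = 0.000342 and 0.00427). Papss2 was at 262 normalized RPKM in Prss57-/- BMMC library 3 and at 60.8 to 83.1 in the other 4, and its log2 fold change over GMPs was 1.23 without that library. Between the genotypes, 0 of the other pathway genes passed the test by edgeR, limma voom or DESeq2, with 39 tested in GMPs, 41 in CMPs and 45 in BMMCs. By edgeR, an unadjusted p under 0.05 was reached by 3 of them in GMPs, 0 in CMPs and 2 in BMMCs. The BMMC counts include Prss57-/- library 3, where serglycin was at 2951 normalized RPKM. Serglycin was at 864 to 988 in the other Prss57-/- BMMC libraries and at 1069 to 1311 in wild-type, with no overlap. Without library 3, 0 of 14162 genes passed between the genotypes in BMMCs by edgeR.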

How the data were processed

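Total RNA of 26 mouse libraries was sequenced by the authors as 50-base single-end reads from a stranded total RNA kit. The reads were aligned to GRCm38 with GSNAP in HTSeqGenie, and uniquely aligned reads within exons were counted by the authors. The deposited counts are whole reads per gene without normalization. The deposited normalized RPKM equal each count over the product of a gene-specific constant and the size factor of the library. The annotation release and the strand setting of the counting are not given in the sources used here.

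From the counts, groups were compared with edgeR 4.0.16 (R 4.3.3; TMM, filterByExpr, robust quasi-likelihood test). The Benjamini-Hochberg method was applied to all genes in a fit, and genes were called at an adjusted p under 0.05. Each fit held only the groups compared. Intervals of 95% used the standard error and the residual degrees of freedom. Alternatives were limma voom (limma 3.58.1), DESeq2 1.42.0, other scalings and filters, a stricter threshold, a replicate block, all libraries in 1 fit and each library left out. The fits were also run on simulated data, with the same spread set for every gene and no library set apart. That run therefore does not cover the libraries that stood apart here. Exact permutation tests and tables were made in Python 3.11.15 with scipy 1.17.1.

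Every member is named, and from each other list up to 4 genes past the threshold with the largest change in a comparison, with Prss57 and Srgn. Smarcd3, Gm10584 and the single marker genes were named after their values were seen. The members and lists were chosen with earlier results of these data known. The floor is 3 counts per library, and floors and intervals of counts cover counting error only. Positions are from GENCODE M21, to which 52403 genes were matched, and promoters from RefSeq.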

Additional observations from a re-analysis of the deposited data

Results flagged for a closer look

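A library was picked out where its gap to the nearest library, relative to the range of its group, exceeded Dixon's 95% critical value. Among 60 sets of an enzyme and a group, 5 were picked out, where chance picks out about 1 in 20. Chsy1 in Prss57-/- BMMC library 3 was at 85.1 normalized RPKM, with the other 4 libraries at 34.6 to 41.7. Chsy1 in Prss57-/- CMP library 2 was at 8.60, with the others at 14.5 to 15.2, and Chpf2 in the same library was at 6.25, with the others at 8.04 to 8.30. Csgalnact2 in wild-type BMMC library 2 was at 56.9, with the others at 40.8 to 44.3. Chst15 in wild-type GMP library 2 was at 6.63, with the others at 5.11 to 5.35. The cause of these values was not tested.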

How the results depend on the processing

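No called member changed direction under any alternative (0 of 473 values). In wild-type cells, the 7 members called between GMPs and CMPs and the 10 called between BMMCs and GMPs were called under each alternative fit, except that 6 and 9 were called where 10 counts were required in every library, which removed Chsy3. Between GMPs and CMPs in Prss57-/- cells, the count of 4 was 2 with library size only, 3 with limma voom, which lost Csgalnact1 (-1.57, adjusted p = 0.0613), 7 with DESeq2 and 7 with all 26 libraries in 1 fit. At an adjusted p under 0.01 and at least 2-fold, it was 1 in Prss57-/- and 2 in wild-type cells. Between BMMCs and GMPs in Prss57-/- cells, the count of 9 was 8 with library size only, which lost Chsy1, 8 with 10 counts in every library, 10 with all 26 libraries in 1 fit, which added Chpf, and 6 by the stricter rule. With 1 library left out at a time, 3 to 5 members were called between GMPs and CMPs in Prss57-/- cells, 7 in wild-type, 8 to 10 between BMMCs and GMPs in Prss57-/- cells, 10 in wild-type, and 0 in the genotype and interaction comparisons. In those comparisons, 0 members were called under every alternative. With the replicate number as a block, 6 members were called between GMPs and CMPs in Prss57-/- cells, with Chst11 and Chsy3 added, and the block changed no other count of members. Libraries with the same number did not deviate together in every pair (lowest correlation between -0.56 and 0.04), so the number was not taken as a pairing. Between GMPs and CMPs, the mean correlation was 0.29 for the same number and -0.10 for different numbers in Prss57-/- cells, and 0.18 and -0.10 in wild-type. Between the genotypes, it was 0.27 and -0.11 in CMPs, -0.05 and 0.03 in GMPs and -0.09 and 0.04 in BMMCs. The labels do not say whether equal numbers mark the same animals. BMMCs and GMPs differ in sex and were not blocked. Over all genes, the count called between GMPs and CMPs in Prss57-/- cells was 3222, 5074 with DESeq2 and 6577 with all libraries in 1 fit. It was 6924 without Prss57-/- CMP library 1, 2088 without CMP library 4, and 2072, 1980 and 1891 without GMP libraries 1, 2 and 3. Between the genotypes, DESeq2 called 5 genes in GMPs and 5 in CMPs, against 2 and 1, the requirement of 10 counts in every library left 0 in both, and library size only, the block, all 26 libraries in 1 fit and 7 of the 8 fits without 1 library each called 1 in GMPs. The cause of these differences was not tested. Chsy3, Dse, Csgalnact1 and Chpf had the fewest reads, and differences smaller than their intervals were not detectable with these libraries. In BMMCs, the width for Dse and Chpf also turned on Prss57-/- library 3. Without it, the standard error of the log2 difference between the genotypes fell from 0.502 to 0.114 for Dse and from 0.456 to 0.108 for Chpf.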

Other observations

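In GMPs, libraries 1 and 2 differed from libraries 3 and 4 for some scarce enzymes in both genotypes. Csgalnact1 was at 0.665 and 0.758 normalized RPKM in wild-type libraries 1 and 2 and at 0.446 and 0.391 in libraries 3 and 4, and at 0.745 and 0.606 against 0.285 and 0.287 in Prss57-/-. Chsy3 had 7 and 20 reads against 0 and 0 in wild-type, and 9 and 14 against 0 and 0 in Prss57-/-. Chpf went the other way, at 1.47 and 1.75 against 3.13 and 2.98 in wild-type and at 2.07 and 1.84 against 2.39 and 2.86 in Prss57-/-. So did Dse, at 0.300 and 0.233 against 0.414 and 0.446 in wild-type and at 0.234 and 0.237 against 0.621 and 0.325 in Prss57-/-. The mast cell markers summed to 641 and 633 against 529 and 512 in wild-type and to 696 and 703 against 465 and 558 in Prss57-/-. The erythroid and megakaryocyte marker sum was 152 and 168 against 124 and 108 in wild-type. In Prss57-/- it was 152 and 149 against 89.2 and 121. The basophil sum was also higher in libraries 1 and 2 of both genotypes. The macrophage sum was lower there in both genotypes, at 48.9 and 56.6 against 68.5 and 67.0 in wild-type. The GMP, dendritic cell, neutrophil and eosinophil sums did not split so in both genotypes. The split of the libraries was seen in the values and was not tested.

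Dsel, the relative of Dse, had an unadjusted p under 0.05 between the genotypes in GMPs and in BMMCs (0.030 and 0.0479), in opposite directions. It was at 0.302 ± 0.0709 normalized RPKM in Prss57-/- and 0.454 ± 0.0823 in wild-type GMPs (SD, n = 4 each), and at 1.33 ± 0.0754 and 1.14 ± 0.0824 in BMMCs (SD, n = 5 each). Neither passed the test after adjustment over all genes.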
